A study of Mus musculus with 7 samples.

Results

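The genes described here encode matricellular and adhesive glycoproteins, secreted proteins that bind the extracellular matrix and the receptors of the cells around it. The 10 members, Sparc, Sparcl1, Thbs1, Thbs2, Thbs3, Tnc, Postn, Spp1, Fn1 and Spon1, were chosen by name and by protein class. All 10 were found by their symbols among the 12771 genes of the count table. The RNA came from cancer-associated fibroblasts (CAFs), the fibroblasts of the tumor stroma, and the comparison asks how silencing of Brca2 in the cancer cells changes them. Tumors were grown in the pancreas of C57BL/6 mice from KPC cells, which are a pancreatic cancer line of the mouse, and CAFs were sorted 2 to 3 weeks after injection. The hosts were males of 8 weeks. The shControl group had received KPC cells with a non-targeting hairpin and the shBrca2 group KPC cells with a hairpin against Brca2, both delivered by lentivirus. The mice were not otherwise modified, and each library came from a separate mouse. The hairpin was therefore in the cancer cells and not in the CAFs, both groups came from the same parental cancer line, and expression was read as 3' end counts in bulk RNA. Replicates 1, 2 and 4 made up the shControl group, with 3 libraries, and replicates 1 to 4 the shBrca2 group, with 4.

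Matricellular proteins are secreted into the matrix but act mostly as signals rather than as its scaffold. SPARC and its relative hevin bind collagen, thrombospondins bind growth factors, proteases and integrins, and tenascin C, periostin and osteopontin engage integrins during wound repair and in the desmoplastic stroma of pancreatic cancer. Fibronectin is an adhesive scaffold protein that cells assemble into fibrils through integrins, and it is described with them because they bind one another.

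Total counts ran from 1898679 to 5990579 per library, and between 12511 and 12722 genes were detected per library. Brca2 in the CAFs does not check the labels, since the hairpin was carried by other cells. It had 12.9 ± 4.18 normalized counts in the 3 shControl libraries and 12.2 ± 2.56 in the 4 shBrca2 libraries. The counts below are normalized counts, that is counts divided by the size factor of their library. A gene was called when its adjusted p in the likelihood ratio test of DESeq2 was under 0.1, its absolute log2 fold change over 0.5 and its mean normalized count over 5. Log2 fold changes are shBrca2 over shControl, and errors of means are standard deviations. Because the reads come from transcript ends and are not corrected for length, levels are compared between groups and not between genes. In bulk samples, fewer cells of a kind and less RNA per cell cannot be told apart.

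The sequences upstream of 4 genes are shown, chosen after their values were seen. They are Thbs3, the member that was called, and Thbs4 and Thbs2, 2 other thrombospondins that did and did not pass the test. The last is Spp1, the member with the highest log2 fold change, which missed the test. Each line is the 250 bases before an annotated start of transcription, 5' to 3' on the gene's strand, from the RefSeq annotation of GRCm38.p6. Capitals mark matches on either strand to 5 motifs, TGANTCA (AP-1), ACGTG (the core of the hypoxia response element), CATTCC (TEAD), CAGAC (the SMAD box) and TATAAA (the TATA box). The windows lie at chr3:89214930-89215179 on the plus strand for Thbs3, chr13:92794819-92795068 on the minus strand for Thbs4, chr17:14694263-14694512 on the minus strand for Thbs2 and chr5:104434861-104435110 on the plus strand for Spp1.
Thbs3: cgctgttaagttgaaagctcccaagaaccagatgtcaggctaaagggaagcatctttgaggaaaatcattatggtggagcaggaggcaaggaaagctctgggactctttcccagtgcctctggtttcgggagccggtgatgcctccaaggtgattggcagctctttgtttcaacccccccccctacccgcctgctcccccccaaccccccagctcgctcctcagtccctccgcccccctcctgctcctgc
Thbs4: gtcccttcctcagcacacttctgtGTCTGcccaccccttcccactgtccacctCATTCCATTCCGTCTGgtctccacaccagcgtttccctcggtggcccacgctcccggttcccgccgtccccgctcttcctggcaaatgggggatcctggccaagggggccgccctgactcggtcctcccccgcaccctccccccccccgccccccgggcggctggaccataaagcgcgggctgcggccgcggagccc
Thbs2: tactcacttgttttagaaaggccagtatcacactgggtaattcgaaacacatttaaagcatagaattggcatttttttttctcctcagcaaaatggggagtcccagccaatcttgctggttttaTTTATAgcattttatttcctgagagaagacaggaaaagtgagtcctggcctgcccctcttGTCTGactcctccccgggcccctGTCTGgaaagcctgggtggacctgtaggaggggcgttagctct
Spp1: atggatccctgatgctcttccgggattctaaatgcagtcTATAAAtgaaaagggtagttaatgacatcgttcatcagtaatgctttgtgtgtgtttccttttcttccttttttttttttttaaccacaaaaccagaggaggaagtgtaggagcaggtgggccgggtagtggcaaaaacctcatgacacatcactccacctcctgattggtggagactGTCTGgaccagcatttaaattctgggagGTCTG

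None of the 5 motifs was found in the Thbs3 window. The Thbs4 window held 2 CATTCC matches, which share a base, and 2 matches to CAGAC read on the other strand as GTCTG. Thbs2 held 2 such GTCTG matches and a TATAAA on the other strand, and Spp1 held 2 GTCTG matches and a TATAAA. A further annotated start of Spp1, not shown, had 1 CAGAC match in its window and no TATAAA. Among all 32851 windows of this length, CAGAC was present in 42.2%, ACGTG in 16.6%, CATTCC in 12.6%, TATAAA in 12.4% and TGANTCA in 6.75%. A match describes letters in the window and does not show that a factor binds there. Whether motifs go with calls was not tested. Sparc, Tnc and Postn also have an entry in this set of sequences, and Sparcl1, Thbs1, Fn1 and Spon1 do not.

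Of the 10 members, 1 was called lower in shBrca2 CAFs, none was called higher and 9 were not called, with the same 2 counts by edgeR. The called member was Thbs3, and it fell by 1.09 on the log2 scale, a 2.14-fold lower level. Over all 12768 genes tested, 9.04% were called, 3.77% higher and 5.27% lower, so the members' share of calls is near the background. DESeq2 gave 3 members an unadjusted p under 0.05, Spp1 with a positive and Thbs3 and Fn1 with a negative log2 fold change, against 17.7% of all genes. The groups did not overlap for 2 members, Thbs3 and Fn1, against 17.1% of all genes tested. Log2 fold changes were positive for 4 members and negative for 6, with a median of -0.06 beside 0.008 over all genes. Together the members took 1.93% to 2.10% of the counts of a shControl library and 1.84% to 2.31% of a shBrca2 library, so the summed level did not separate the groups. Most of these counts were of Sparc, which alone took 1.17% to 1.51% of a library.

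**Figure D1:**
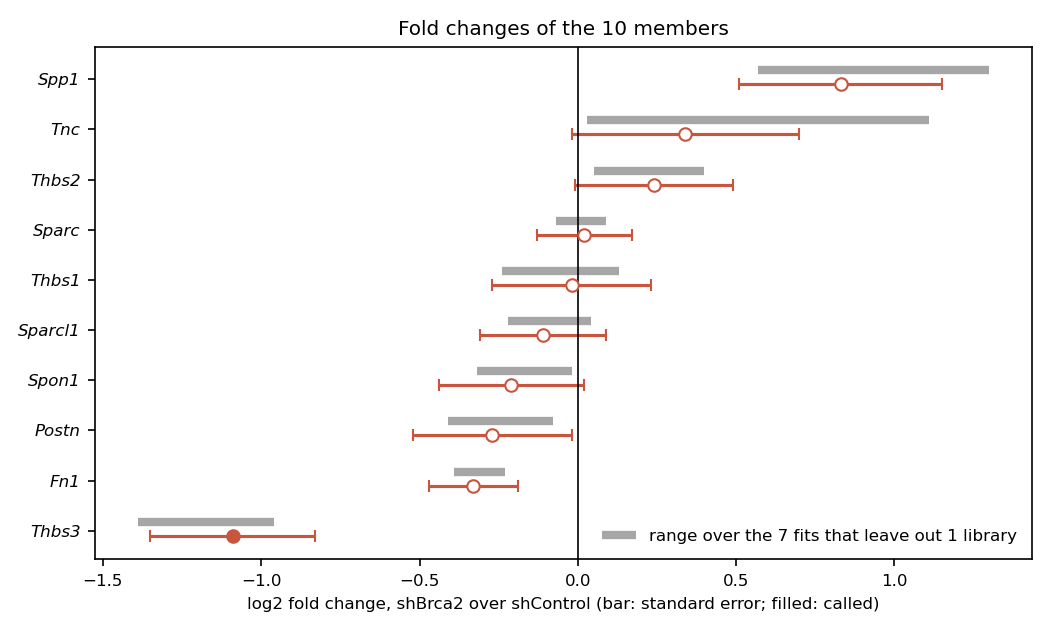
Log2 fold change of each member, shBrca2 over shControl, from DESeq2, with red bars of 1 standard error, a filled point for the called gene and a gray band for the range over the 7 fits that leave out 1 library. Thbs3 lies at -1.09 and is the called member, Spp1 lies highest at 0.83 and was not called, and Sparc and Thbs1 lie at 0.02 and -0.02.

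**Figure D2:**
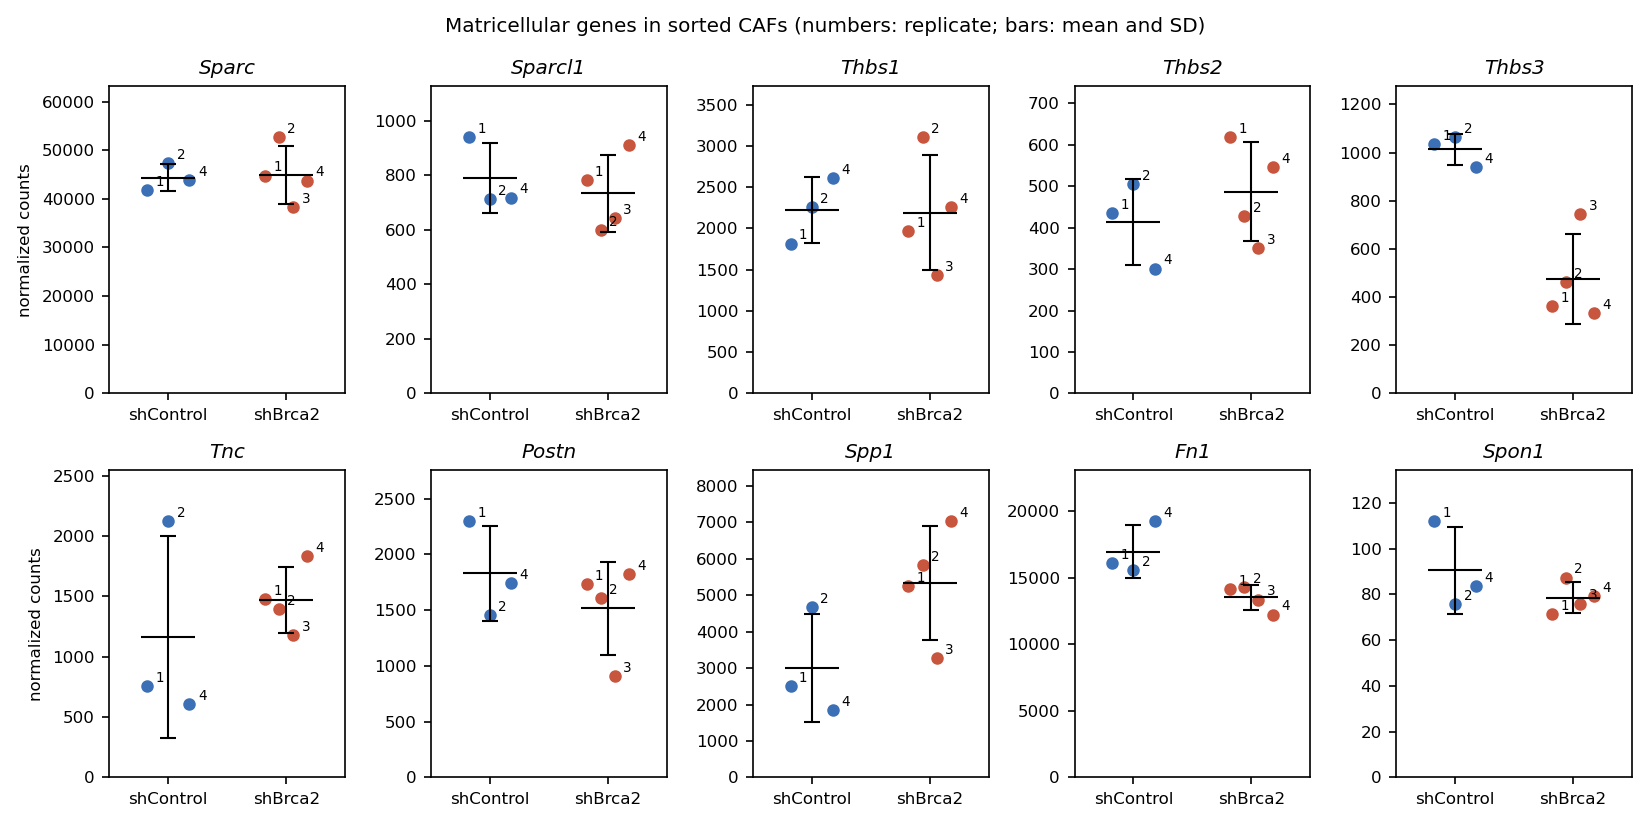
Normalized counts of the 10 members in the 3 shControl and 4 shBrca2 libraries, on linear axes from 0 that differ between genes, with a point for each library marked with its replicate number and bars for the group mean and SD. The groups are apart for Thbs3 and Fn1 and overlap for the other 8 members.

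Thrombospondins are secreted multimers with different partners, and Thbs1 is known for activating latent TGF-beta and inhibiting angiogenesis. The fall within the family was in Thbs3, a pentameric thrombospondin of cartilage, bone and other connective tissues. Thbs3 (chr3:89215180-89226841, GRCm38.p6) had 1035, 1064 and 941 normalized counts in the shControl libraries (replicates 1, 2 and 4) and 364, 464, 744 and 333 in the shBrca2 libraries (replicates 1 to 4), the order used for all values below. Every shBrca2 library was below every shControl library, and shBrca2 replicate 3 was the nearest to them. The means were 1013 ± 64.5 (n = 3, SD) and 476 ± 187 (n = 4, SD), with a log2 fold change of -1.09 (SE 0.26, adjusted p = 0.0012 by DESeq2). Thbs3 was called in all 12 alternative settings, at log2 fold changes from -1.40 to -0.96, and without shBrca2 replicate 3 the value was -1.39.

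A neighbouring gene on the opposite strand, Mtx1, overlaps Thbs3 in 347 of its 4881 annotated exon bases (7.11%), none of them in the last 1000 bases of Thbs3, the end from which these libraries are read. How the counting used strand is not given in the sources used here. Mtx1, looked up after the Thbs3 values were seen, had 306 ± 49.3 normalized counts in shControl (n = 3, SD) and 296 ± 28.7 in shBrca2 (n = 4, SD), with a log2 fold change of -0.05 (adjusted p = 0.94 by DESeq2).

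Thbs1 (chr2:118111876-118127133) had 1815, 2254 and 2609 normalized counts in the shControl libraries and 1966, 3104, 1432 and 2259 in the shBrca2 libraries. Both the highest and the lowest value belonged to shBrca2, in replicates 2 and 3, and the means were 2226 ± 398 (n = 3, SD) and 2190.3 ± 699 (n = 4, SD). Its log2 fold change was -0.02 (SE 0.25, adjusted p = 0.96 by DESeq2). Thbs2 (chr17:14665500-14694262), a close relative of Thbs1 that also inhibits angiogenesis, had 435, 505 and 301 normalized counts in shControl and 618, 428, 351 and 547 in shBrca2. The groups overlapped, and the log2 fold change was 0.24 (SE 0.25, adjusted p = 0.71 by DESeq2). The 11.1% of Thbs1 exon bases that overlap other annotated genes, all on the opposite strand, lie outside its last 1000 bases.

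The ratio of 2 members within a library does not depend on how libraries are scaled, so it was used to compare relatives. Thbs1 had 1.75, 2.12 and 2.77 counts for each Thbs3 count in the shControl libraries and 5.40, 6.69, 1.92 and 6.78 in the shBrca2 libraries. The ratio was above the control range in shBrca2 replicates 1, 2 and 4 and inside it in replicate 3. On the log2 scale the means were 1.12 ± 0.33 (n = 3, SD) and 2.22 ± 0.86 (n = 4, SD), and the difference of 1.10 did not pass the test (two-sided, exact permutation p = 0.17, 0.34 adjusted over 4 ratios). For Thbs2 to Thbs3 the ratios were 0.420, 0.474 and 0.320 in shControl and 1.70, 0.922, 0.471 and 1.64 in shBrca2. Again replicate 3 was the shBrca2 library inside the control range, and the log2 difference was 1.39 (exact permutation p = 0.11, adjusted 0.34). Thbs1 to Thbs2 differed by -0.29 on the log2 scale, with overlapping groups (exact permutation p = 0.34, adjusted 0.46). The test doubles the smaller one-sided p, so the smallest p that the 35 divisions of 7 libraries allow is 0.057, and none of these ratios could reach 0.05. Counted instead by the absolute difference, where the smallest p is 0.029, the exact permutation p was 0.11 for Thbs1 to Thbs3, 0.086 for Thbs2 to Thbs3 and 0.46 for Thbs1 to Thbs2, before adjustment. That count was added after the data were seen.

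**Figure D3:**
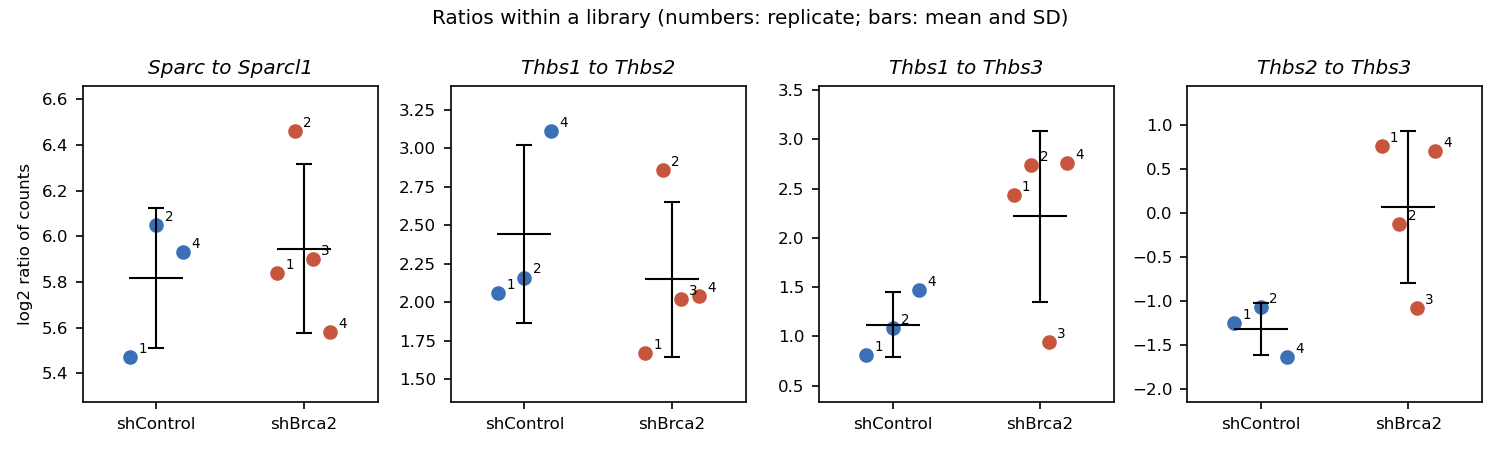
Log2 ratio of the counts of 2 members in each library, for 4 pairs of relatives, with a point for each library marked with its replicate number and bars for the mean and SD of the group. The ratios of Thbs1 and Thbs2 to Thbs3 are higher in 3 of 4 shBrca2 libraries than in any shControl library, while the other 2 pairs overlap widely.

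SPARC is a collagen-binding glycoprotein with a role in the assembly of collagen fibrils, and Sparcl1 encodes hevin, its closest relative. Neither was called. Sparc (chr11:55394159-55420080) had 41737, 47291 and 43918 normalized counts in the shControl libraries and 44769, 52669.6, 38373 and 43746 in the shBrca2 libraries. The highest and the lowest library were both shBrca2, and the means of 44315 ± 2798 (n = 3, SD) and 44889 ± 5897 (n = 4, SD) differed by less than either spread. Its log2 fold change was 0.02 (SE 0.15, adjusted p = 0.96 by DESeq2). Sparcl1 (chr5:104079108-104114088) had 939, 711 and 718 normalized counts in shControl and 783, 599.8, 642 and 911 in shBrca2. The highest library was shControl replicate 1, the lowest shBrca2 replicate 2, and the groups overlapped. Its log2 fold change was -0.11 (SE 0.20, adjusted p = 0.88 by DESeq2). The ratio of Sparc to Sparcl1 ran from 44.5 to 66.5 in shControl and from 48.0 to 87.8 in shBrca2, a log2 difference of 0.12 (exact permutation p = 0.74, also 0.74 after adjustment).

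Tenascin C, periostin and osteopontin are matricellular proteins of activated fibroblasts and of inflamed or healing tissue. Of the 3 genes none was called by the likelihood ratio test of DESeq2 or by edgeR, and the unadjusted p was under 0.05 for Spp1. Spp1 (chr5:104435111-104441053), which encodes osteopontin, an integrin and CD44 ligand that macrophages and epithelial cells also make, had 2497, 4683 and 1854 normalized counts in shControl and 5243, 5826, 3276 and 7030.4 in shBrca2. Of the 4 shBrca2 libraries 3 were above every shControl library, and replicate 3 was below shControl replicate 2. The means were 3011 ± 1483 (n = 3, SD) and 5344 ± 1567 (n = 4, SD), a 1.78-fold higher level, with a log2 fold change of 0.83 (SE 0.32, unadjusted p = 0.011, adjusted p = 0.11 by DESeq2). Spp1 was called in 5 of the 12 alternative settings, among them by the Wald test of DESeq2 (0.83, adjusted p = 0.095), without shControl replicate 2 (1.30, adjusted p = 2.8e-04 by DESeq2) and without shBrca2 replicate 3 (1.0, adjusted p = 0.019). It was not called by edgeR (0.82, adjusted p = 0.15). In the annotation 12.7% of the Spp1 exon bases also belong to a predicted gene on the same strand, Gm42793, none of them in the last 1000 bases of Spp1.

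Tnc (chr4:63959785-64047015) encodes tenascin C, a hexameric glycoprotein that modulates cell adhesion to fibronectin. It had 758, 2124 and 605 normalized counts in the shControl libraries and 1479, 1399, 1178 and 1838 in the shBrca2 libraries. The highest library was shControl replicate 2, and the other 2 shControl libraries were below every shBrca2 library. The means were 1162 ± 836 (n = 3, SD) and 1473 ± 274 (n = 4, SD), with a log2 fold change of 0.34 (SE 0.36, adjusted p = 0.71 by DESeq2). Without shControl replicate 2 the log2 fold change was 1.11 (SE 0.22, adjusted p = 5.7e-05 by DESeq2) and Tnc was called, and without shControl replicate 4 it was 0.03.

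Postn (chr3:54359267-54391041) encodes periostin, which supports the cross-linking of collagen and binds integrins. It had 2298, 1459.9 and 1741 normalized counts in shControl and 1731, 1607, 907 and 1825 in shBrca2. The lowest value was in shBrca2 replicate 3 and the groups overlapped. The log2 fold change was -0.27 (SE 0.25, adjusted p = 0.66 by DESeq2), and it was not called without any single library.

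Fn1 and Spon1 are the adhesive members. Fn1 (chr1:71585473-71653280) encodes fibronectin, the integrin-binding scaffold to which tenascins, thrombospondins and collagens attach. It had 16098, 15576 and 19253 normalized counts in the shControl libraries and 14176, 14333, 13361 and 12234 in the shBrca2 libraries. Every shBrca2 library was below every shControl library, with means of 13526 ± 961 (n = 4, SD) and 16976 ± 1989.9 (n = 3, SD). The log2 fold change was -0.33 (SE 0.14, unadjusted p = 0.019, adjusted p = 0.16 by DESeq2), which missed both the adjusted threshold and the fold threshold, and it lay between -0.39 and -0.23 when single libraries were left out. Spon1 (chr7:113765998-114043375) encodes F-spondin, first known for adhesion of neurons. With raw counts of 44 to 150 a library it was the least counted member, at 112, 75.9 and 83.7 normalized counts in shControl and 71.4, 87.4, 76.0 and 79.3 in shBrca2. Its groups overlapped, and the log2 fold change was -0.21 (SE 0.23, adjusted p = 0.74 by DESeq2). Fn1 shares 2.71% of its exon bases with a gene on the opposite strand, as do Sparcl1 (7.72%), Tnc (3.80%) and Postn (0.914%), none of them in the last 1000 bases of the gene, while Sparc, Thbs2 and Spon1 share none.

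The members have relatives in the same protein families. Of 24 other matricellular glycoproteins listed by function, 18 were present, and 2 of them were called higher and 8 lower. Their median log2 fold change was -0.41 beside 0.008 over all genes, and for 11 of the 18 the groups did not overlap. Over all genes tested, 3.77% were called higher and 5.27% lower, and the groups did not overlap for 17.1%. The difference in the share of calls between this list and the members was not tested. By family, 3 of 5 thrombospondins, 1 of 3 tenascins, 1 of 5 genes of the SPARC family, 1 of 2 spondins and 2 of 5 CCN genes were called lower, and 1 of 2 fasciclin genes was called higher.

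Among the thrombospondins, Thbs4 and Comp, which with Thbs3 form pentamers, were called lower together with it. Thbs4 had 745, 646 and 518 normalized counts in shControl and 346, 157, 171 and 422 in shBrca2, and its log2 fold change was -1.21 (SE 0.33, adjusted p = 0.0055 by DESeq2). Comp, a cartilage matrix protein, had 60.6, 35.4 and 31.1 normalized counts in shControl and 11.2, 7.58, 13.8 and 12.2 in shBrca2, with a log2 fold change of -1.99 (SE 0.41, adjusted p = 1.0e-04 by DESeq2). For both genes every shBrca2 library was below every shControl library, and both were called in all 12 alternatives. Thbs1 and Thbs2, the trimeric thrombospondins, were not called, as given above. The division of the family by subunit number was chosen after the values were seen and is a description.

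Tnxb, which encodes tenascin X, a tenascin of loose connective tissue that spaces collagen fibrils, had 4209, 4220.3 and 4709 normalized counts in shControl and 869, 1858, 1318 and 799.9 in shBrca2. Its log2 fold change was -1.85 (SE 0.27, adjusted p = 7.3e-09 by DESeq2), while Tnc did not pass the test in the same libraries. A further tenascin, Tnn, named after its values were seen, had a log2 fold change of 1.35 (adjusted p = 0.18 by DESeq2). Like Tnc it was called without shControl replicate 2 (2.66, adjusted p = 3.0e-04). The groups of Tnxb did not overlap, and those of Tnc and Tnn did. Tnxb shares 375 of its 13488 exon bases with genes on the opposite strand, and 290 of them are in its last 1000 bases, and since strand use is not known, reads of Tnxb and of those genes cannot be told apart there.

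Vtn, which encodes vitronectin, an integrin ligand of plasma and matrix, was called lower with 539.8, 447 and 335 normalized counts in shControl and 90.4, 225, 104 and 82.3 in shBrca2 (log2 fold change -1.80, adjusted p = 1.2e-05 by DESeq2). Ccn3, a growth-modulating member of the CCN family, had a log2 fold change of -1.23 (adjusted p = 2.5e-06 by DESeq2). Of the same list, named after their values were seen, Smoc2 of the SPARC family changed by -1.17 (adjusted p = 3.6e-06) and Ccn5 by -0.98 (adjusted p = 7.9e-06), and all 4 genes were called in every alternative. Spon2, the relative of Spon1 and also named after its values were seen, changed by -0.75 (adjusted p = 0.056 by DESeq2). The call of Spon2 was lost without shControl replicate 2 (-0.60, adjusted p = 0.19) and without shBrca2 replicates 1, 3 or 4 (-0.72, -0.67 and -0.61).

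The 2 genes of the list that were called higher were Tgfbi and Npnt. Tgfbi encodes a fasciclin-domain protein related to periostin and induced by TGF-beta. It had 120.4, 228 and 180.0 normalized counts in shControl and 503, 349, 831 and 746 in shBrca2, a log2 fold change of 1.79 (SE 0.31, adjusted p = 6.9e-06 by DESeq2), and it was called in all 12 alternatives. Its relative Postn stood at -0.27 and was not called, and the difference between the 2 genes was not tested. Npnt, which encodes nephronectin, an integrin ligand, had 17.9, 19.0 and 15.6 normalized counts in shControl and 38.7, 32.1, 34.5 and 45.7 in shBrca2, a log2 fold change of 1.11 (adjusted p = 0.022 by DESeq2). The call of Npnt was lost without shControl replicates 1 or 4 (1.13 and 1.03) and without shBrca2 replicates 1 or 4 (1.10 and 1.01).

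**Figure D4:**
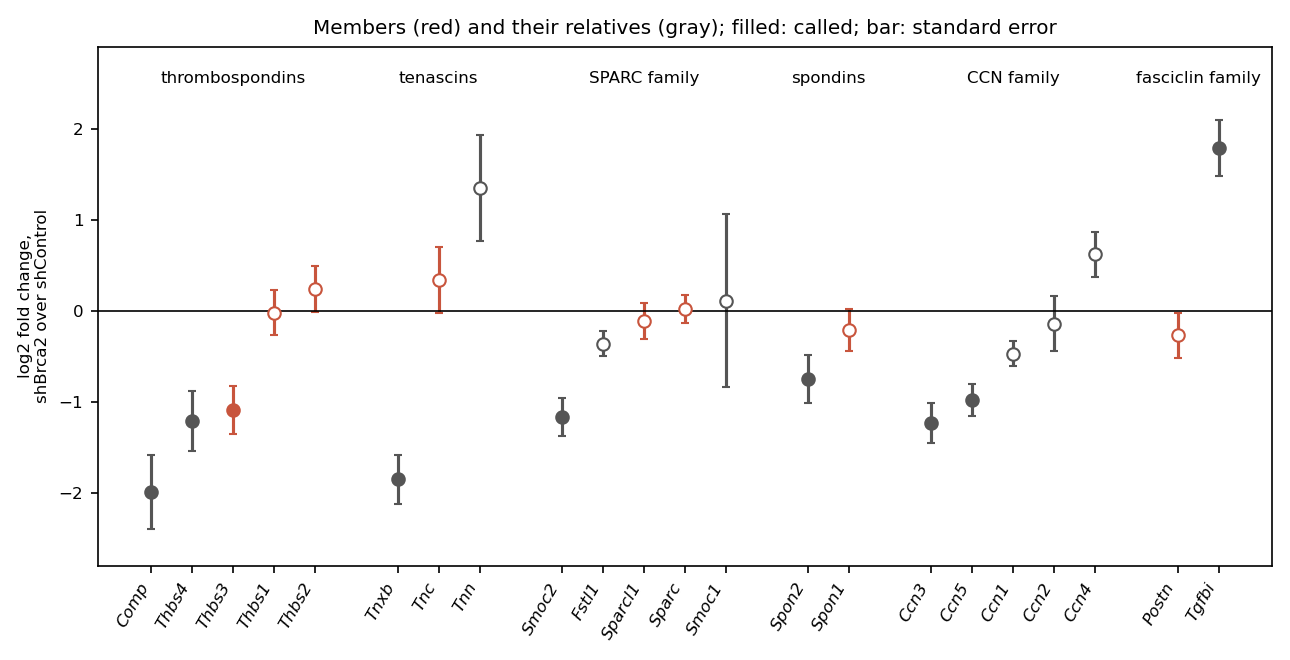
Log2 fold change, shBrca2 over shControl, of the members and of the relatives from the same protein families, grouped by family, with members in red, relatives in gray, filled points for called genes and bars of 1 standard error. Spp1 and Fn1, which had no listed relative among the measured genes of their families, are not drawn. Thbs3, Thbs4 and Comp lie between -1.99 and -1.09 and Thbs1 and Thbs2 near 0, and Tnxb at -1.85 and Tgfbi at 1.79 lie far from their relatives among the members.

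Of 19 receptors of matricellular proteins, 15 were measured, 3 were called higher and 1 lower, and the median of their log2 fold changes was 0.32. Among all genes tested, 3.77% were called higher and 5.27% lower, and the median was 0.008. Cd44, a receptor of osteopontin and hyaluronan, rose from 175, 202 and 212 normalized counts in shControl to 350.2, 360.2, 297 and 295 in shBrca2 (log2 fold change 0.74, SE 0.17, adjusted p = 0.0012 by DESeq2). Lrp1, an endocytic receptor that takes up thrombospondins, fell from 6424, 6782 and 7387 to 3647, 3929, 5369.5 and 3302 (log2 fold change -0.76, SE 0.19, adjusted p = 0.0023). Neither gene's groups overlapped, and both were called in every alternative. Sdc1, a heparan sulfate proteoglycan that serves as a co-receptor of integrins, rose by 0.99 (adjusted p = 0.011 by DESeq2), with overlapping groups. Itga3, an integrin subunit, rose by 1.05 (adjusted p = 0.035), and its call was lost without shControl replicate 1 (0.71) and without shBrca2 replicates 1 or 4 (1.04 and 0.99).

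All 10 genes of the TGF-beta axis were measured, 2 were called higher and 2 lower, and their median log2 fold change was 0.00. These calls stand beside 3.77% of all genes tested called higher and 5.27% called lower. Tgfb1, the ligand that several of the members bind or respond to, had 143, 426 and 135 normalized counts in shControl and 466, 454, 356 and 698 in shBrca2. It was called, with a log2 fold change of 1.08 (adjusted p = 0.062 by DESeq2). As for Spp1 and Tnc, shControl replicate 2 was the highest control library. The call of Tgfb1 was lost without shControl replicates 1 or 4 (0.82 and 0.80) and without shBrca2 replicates 2 or 4 (1.11 and 0.87). Tgfbr2, its signaling receptor, fell from 1981, 1747 and 1933 to 1075, 1406, 874 and 1071 (log2 fold change -0.77, adjusted p = 0.0012 by DESeq2), without overlap and in every alternative. Tgfbr3 changed by -0.78 (adjusted p = 0.018) and Smad3 by 0.59 (adjusted p = 0.039). The call of Tgfbr3 was lost when replicate 4 of shControl (-0.52) or of shBrca2 (-0.71) was left out, and that of Smad3 without shControl replicates 1 or 4 (0.52 and 0.62) and without shBrca2 replicates 1, 3 or 4 (0.50, 0.56 and 0.61).

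Among 15 matrix partners and processing enzymes, all in the table, none was called higher by DESeq2 and 4 were called lower, 6 had an unadjusted p under 0.05 in either direction, and the list had a median log2 fold change of -0.23. The shares over all genes tested were 3.77% called higher, 5.27% called lower and 17.7% with an unadjusted p under 0.05. Mmp3, a protease that cleaves osteopontin and fibronectin, changed by -1.18 (adjusted p = 7.4e-06 by DESeq2) and was called in every alternative. Ctsk, a collagen-degrading protease, changed by -0.75 (adjusted p = 0.0028), and its call held without each single library. Fbln2, a fibronectin-binding fibulin, changed by -0.53 (adjusted p = 0.046), with the call lost without shControl replicates 2 or 4 (-0.36 and -0.56) and without shBrca2 replicates 1 or 4 (-0.48 and -0.49). Adamts1, a proteoglycan-degrading protease, changed by -0.58 (adjusted p = 0.078), with the call lost without shControl replicates 1 or 4 (-0.42 and -0.59) and without shBrca2 replicates 1 or 4 (-0.48 and -0.50). The chains of collagen I, to which SPARC binds, stood at -0.04 for Col1a1 and -0.09 for Col1a2 and were not called. Both were named after their values were seen.

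**Figure D5:**
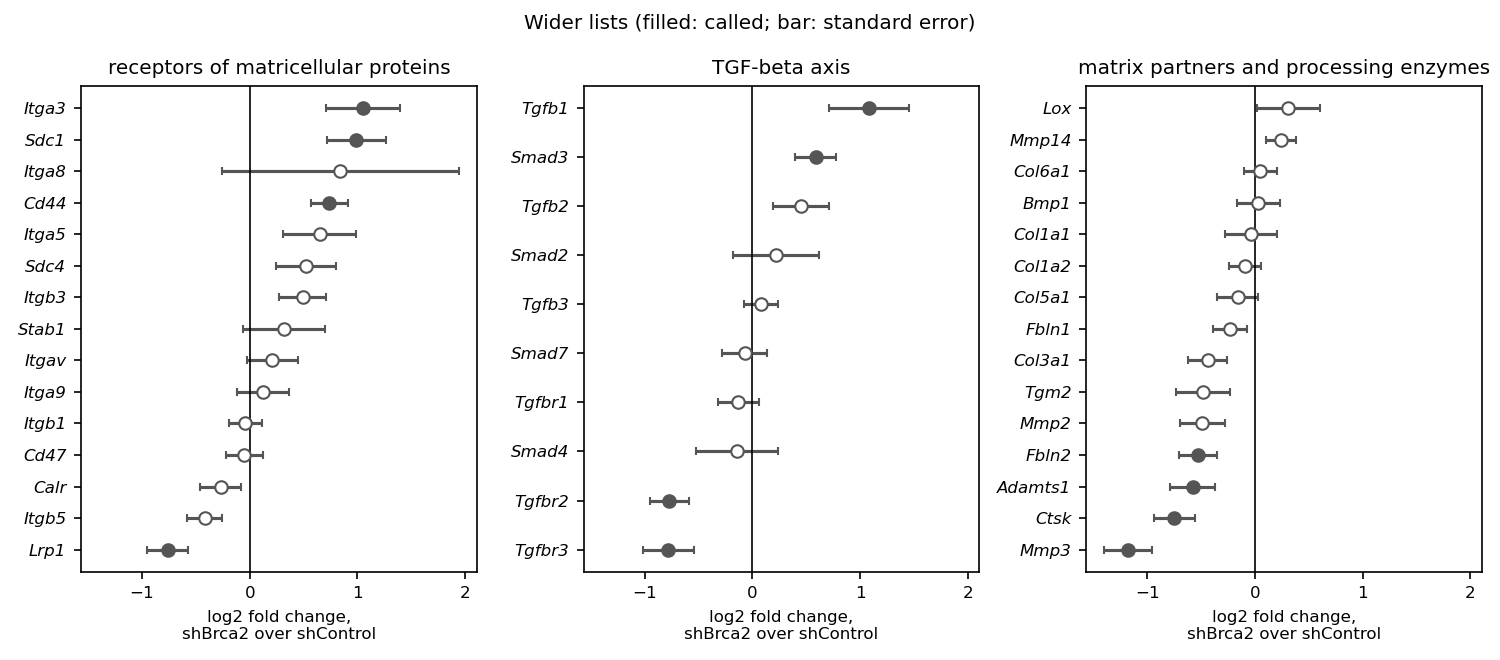
Log2 fold change, shBrca2 over shControl, of each measured receptor, gene of the TGF-beta axis and matrix partner or enzyme, with filled points for called genes and bars of 1 standard error. Itga3, Sdc1, Cd44, Tgfb1 and Smad3 are the called genes to the right of 0, from 0.59 to 1.08, and Lrp1, Tgfbr2, Tgfbr3, Fbln2, Adamts1, Ctsk and Mmp3 those to the left, from -1.18 to -0.53.

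Several members are also made by other cells of a tumor, so marker lists are given beside them, as sums of CPM (counts scaled to the library total) in each library. For the calls of markers, the shares over all genes tested were 3.77% higher and 5.27% lower. The fibroblast sum was 10658, 7323 and 10696 in shControl replicates 1, 2 and 4 and 6861 to 7844 in shBrca2, and of 8 fibroblast markers 2 were called lower, Dcn (log2 fold change -0.77) and Lum (-1.18), and none higher. Dcn was the most counted of them, and without it the sum was 3715, 4210.2 and 3294 in shControl and 3301 to 4517 in shBrca2. The call of Lum was lost without shControl replicate 1 (-0.94), and that of Dcn without shControl replicates 1 or 4 (-0.63 and -0.56) and without shBrca2 replicates 1 or 4 (-0.69 and -0.68). The sort marker Pdpn (log2 fold change -0.25) and Pdgfra (0.01) were not called. The macrophage sum was 77.1 to 86.5 in shControl and 124 to 136 in shBrca2, without overlap. The gap rested on Csf1r, and the sum without it was 45.2 to 56.8 in shControl and 39.5 to 64.3 in shBrca2. Of 9 measured markers 2 were called higher, Csf1r and C1qa. By direction 7 had a positive log2 fold change and 2 a negative one, with a median of 0.57. Cd68 (-0.32) and Lyz2 (-0.26) were negative and not called. Mrc1 (0.87), C1qb (0.69), C1qc (0.57), Tyrobp (0.52) and Aif1 (0.31) were positive and not called. Csf1r changed by 1.15, and C1qa by 1.65, a call that held in 4 of 12 alternatives and, of the settings without a single library, only without shBrca2 replicate 3 (log2 fold change of 1.95). The epithelial sum was 117 to 331 in shControl and 420.5 to 647 in shBrca2, also without overlap, with or without its most counted marker Krt19. Of 7 markers 4 were called higher, the keratins Krt8, Krt18, Krt7 and Krt19, with Krt8 the highest of them at 1.58. Cdh1 (1.59, mean normalized count 8.26), Cldn7 (0.58, mean normalized count 2.08) and Muc1 (0.01) were positive and not called. The calls of Krt8 and Krt18 held in every alternative, that of Krt7 was lost without shControl replicate 1 (0.74) or shBrca2 replicate 1 (0.99), and that of Krt19 held in 6 of 12, at 0.61 to 1.61. Of the defining markers, Ptprc and Epcam were not among the genes of the count table and so could not be analysed here. Pecam1 of endothelial cells had 1.95 to 17.7 normalized counts in shControl and 0 to 1.72 in shBrca2, Rgs5 of pericytes 0.854 to 8.86 and 1.73 to 6.88, and Msln of mesothelial cells 96.5 to 519 and 558 to 665.

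Spp1 is a gene of macrophages and epithelial cells as well. It stood at 709.9, 1296 and 527 CPM in shControl and 1654, 1669, 999 and 2209 in shBrca2, and its groups overlapped where the macrophage and epithelial sums did not. Among the controls Spp1 was lowest in replicate 4, where the epithelial sum was highest, at 331 against 117 and 222. The macrophage sum ordered the controls as Spp1 did, at 85.7, 86.5 and 77.1 in replicates 1, 2 and 4. That order rested on Csf1r. Without it the sums were 56.8, 45.2 and 52.5, with replicate 2, the highest control in Spp1, now the lowest. In shBrca2, replicate 4 was highest in Spp1 and in the epithelial sum (647), and replicate 3 lowest in Spp1 and in the macrophage sum (124). The lowest epithelial sum in shBrca2 was in replicate 2 (420.5) and the highest macrophage sum in replicate 1 (136). In shControl replicate 2, where Spp1, Tnc and Tgfb1 were highest among the controls, the fibroblast sum was the lowest of the controls with Dcn and the highest without it, and the pericyte sum was the highest, at 360.0 against 213 and 239. The pericyte sum was 388 to 529.9 in shBrca2, above every control. Without Des, its most counted marker, the sum was 115 to 132 in shControl and 116 to 174 in shBrca2, and the groups overlapped. Of 8 pericyte markers 2 were called higher, Des (0.86) and Notch3 (1.12). By direction 5 were positive and 3 negative, with a median log2 fold change of 0.37. Kcnj8 (-0.13), Abcc9 (-0.32) and Myh11 (-0.11) were the negative ones. Rgs5 (0.59), Mcam (0.49) and Cspg4 (0.25) were positive and, like those 3, not called. The sums without a gene, and the markers that were not called, were chosen after the values were seen. The call of Des was lost without shControl replicates 1 or 4 (0.63 and 0.71) or shBrca2 replicate 1 (0.76), and that of Notch3 without shControl replicate 4 (0.85). None of 5 endothelial and 6 mesothelial markers was called by DESeq2, with an unadjusted p under 0.05 for 1 and 0 of them. The 1 was Pecam1, at a log2 fold change of -3.60 (adjusted p = 0.031 by DESeq2). Its mean normalized count of 3.87 was under the threshold of 5, so it was not called. The endothelial sum was 29.1 to 52.2 in shControl and 39.5 to 54.0 in shBrca2, the mesothelial sum 252 to 829 and 616 to 792. The part of other cell types in the levels of the members was not tested.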

How the data were processed

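Live PDPN+ cells that lacked EpCAM, CD31 and CD45 were sorted as CAFs, and poly(A) RNA was turned into 3' end libraries by a variant of MARS-seq. The authors deposited raw counts per gene symbol, 1 column per library, with no normalization. Their processing notes name bcl2fastq, cutadapt, STAR 2.4.2a, HTSeq, DESeq2 and mm10. Whether molecular barcodes were collapsed, how strand was used and which annotation was counted are not given in the sources used here. The table holds 12771 genes, each with a highest count of 6 or more, and genes outside it were not analysed here. Counting error is smallest for Sparc and largest for Spon1. Each library came from 1 mouse, so p-values measure the spread between mice together with that of library preparation. Separately transduced cancer lines within a group are not described. A difference between the transduced lines therefore cannot be told apart from silencing of Brca2. No libraries were duplicates: between the closest 2 of them the mean chi-square over genes was 3.35. By this measure shControl replicate 2 was nearer to shBrca2 replicates 2 and 3 (14.43 and 16.44) than to shControl replicates 1 and 4 (16.97 and 17.13). Its values to shBrca2 replicates 1 and 4 were larger (19.31 and 19.06). The measure also depends on depth.

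All 7 libraries were fitted with DESeq2 1.42.0 (R 4.3.3, median-of-ratios size factors, likelihood ratio test of the group, no covariate), as the study's methods state, with their thresholds, and p-values were adjusted by Benjamini-Hochberg over all genes. The study reports 482 genes higher and 666 lower in these CAFs. Here the likelihood ratio test gave 481 and 673, and the Wald test of DESeq2 gave 482 and 666. Of the members, Spp1 was called by the Wald test (adjusted p = 0.095) and not by the likelihood ratio test. The test gave 12768 genes a p and 3 genes none. Ratios are log2((count + 1) / (count + 1)) and went through an exact permutation test, two-sided (scipy 1.17.1). Alternatives were edgeR 4.0.16 (quasi-likelihood), a Wald test, TMM factors, a filter (at least 10 counts in 3 libraries, 10852 genes kept), the replicate number as a block, leaving out each library, and a pseudocount of 0.5 for the ratios. The code was tested on simulated data. The members and the lists were chosen with earlier results of these data known. Named are all members, from each wider list the called genes, at most 5 in each direction by fold change, from each marker list at most 3 called genes in each direction, and defining markers. Any other gene is said to be chosen after its values were seen, and Krt19, the fourth called epithelial marker, is one. Coordinates and upstream sequences are from RefSeq on GRCm38.p6, which is the build mm10, and exon overlaps from GENCODE vM39 on GRCm39. The 50 bases after each start site were left out of the motif search. Protein features were planned and not run.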

Additional observations from a re-analysis of the deposited data

How the results depend on the processing

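Each member's log2 fold change was recomputed in 12 alternative settings, and 5 members kept their direction and their call in all of them. Thbs3 was called in all 12. With the replicate number as a block, 211 genes were called higher and 280 lower, against 481 and 673, 1 member was called higher (Spp1 at 1.10, adjusted p = 0.014) and 1 lower, and Thbs1 stood at 0.12. No shControl library has the number 3, so shBrca2 replicate 3 was alone in its block and did not inform the group difference. Thbs3 stood at -1.40 with the block and at -1.39 in the fit without shBrca2 replicate 3. Same-numbered libraries deviated from their group means with correlations of -0.09, -0.13 and -0.14, so no pairing by number was seen. With group means of only 3 and 4 libraries, these correlations cannot exclude that same-numbered libraries shared a batch. No shControl library correlated best with its own number. Spp1 was also called with a Wald test (0.83) and with the filter on low counts (0.83), which brought the members called higher to 1. Of the other named genes, the block lost the calls of Npnt, Tgfbr3, Smad3, Fbln2, Ctsk, Adamts1, Dcn, Lum and Notch3, and gave C1qa no adjusted p. edgeR lost those of Spon2, Tgfb1, Fbln2, Adamts1, Dcn, C1qa and Krt19, at adjusted p-values of 0.10 to 0.14. The cause was not tested.

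Leaving out single libraries gave 261 to 610 genes called higher, 354 to 695 lower, 0 to 2 members higher and 1 lower. The log2 fold changes ranged from -0.07 to 0.09 for Sparc (-0.02 without shControl replicate 1, -0.07 without shBrca2 replicate 2), from -0.22 to 0.04 for Sparcl1 (0.04 without shControl replicate 1), from -0.24 to 0.13 for Thbs1 (0.11 without shControl replicate 4, 0.03 and 0.13 without shBrca2 replicates 1 and 3), from 0.03 to 1.11 for Tnc and from 0.57 to 1.30 for Spp1. The log2 ratio of Sparc to Sparcl1 changed sign to -0.05 without shControl replicate 1 or shBrca2 replicate 2 (highest value 0.24), and that of Thbs1 to Thbs2 to 0.04 without shControl replicate 4. Of the other matricellular glycoproteins 1 to 3 were called higher and 7 to 9 lower, with a median from -0.53 (without shBrca2 replicate 3) to -0.35, of the receptors 1 to 2 lower, of the TGF-beta axis 0 to 2 higher and 1 to 2 lower, and of the matrix partners 2 to 6 lower. Of 304 values under an alternative, 258 kept direction and call. Among the members depth limits Spon1 most, with 44 to 150 raw counts.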
